A study of Mus musculus with 6 samples.

Results

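The expression of 10 Notch pathway genes was measured in Flk1+ mesodermal cells of mouse embryoid bodies, namely the receptors Notch1, Notch2, Notch3 and Notch4, the ligands Dll4, Jag1 and Jag2, and the target genes Hes1, Hey1 and Hey2. They were taken as all probe sets of the deposited array table whose single gene symbol is one of these 10 genes, which gave 19 of 45037 probe sets. Of the 19, 16 exceeded the limit for dim probe sets (the 40th percentile of their array, on at least 2 of 6 arrays) and were tested, covering 9 of the 10 genes. Both Dll4 probe sets and 1 of 3 Notch4 probe sets lay below it.

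Notch receptors are cut when a ligand on a neighbouring cell binds them, and the freed intracellular part enters the nucleus, where it joins the DNA-binding protein Rbpj and switches on Hes and Hey genes. Hes and Hey proteins are basic helix-loop-helix repressors. In the vascular system Dll4, Notch1 and Notch4 are known for their roles in arterial endothelium and in the emergence of blood cells from it, and Hey2 is a marker of arterial and of ventricular heart cells.

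Embryonic stem (ES) cells were differentiated in culture, and Flk1+ cells were sorted on day 4 for 3 groups of 2 arrays. WT Scl+ and WT Scl- are the human CD4 positive and negative parts of Flk1+ cells of a single reporter line, derived from R1 ES cells of (129/Sv x 129/Sv-CP)F1 origin. In this line a human CD4 sequence knocked into the Scl locus (gene Tal1, a transcription factor needed for blood formation) reports Scl expression, so both WT groups carry that allele. SclKO cells came from a line lacking Scl, derived from J1 ES cells of 129S4/SvJae origin, and were collected on Flk1 alone according to their treatment label and the sort protocol, although their titles call them Scl-. For SclKO the knockout cannot be told apart from the ES line and the sort gate. Each genotype is thus 1 line. The labels do not name separate cultures for the 2 replicates of a group, and the p-values therefore cover the spread from array to array alone, which may be technical.

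Levels below are natural logs of the deposited values, and differences are in log units. Their scale is not stated. Read as linear values, 1 log unit is 2.72-fold, and if the natural log gives back a log2 value it is 2-fold. Folds are given in both readings with the smaller first. Levels of different probe sets are not comparable with each other. The limit for dim probe sets lay between 4.54 and 4.59. Tal1 was at 8.65 and 8.78 in WT Scl+, 6.52 and 7.97 in WT Scl- and 5.71 and 6.14 in SclKO, and Kdr, the gene of the sort marker Flk1, at 10.83 to 11.35 on all arrays. WT Scl+ replicate 2 stood apart, at -51.3 on a first principal component on which the other arrays lay between -9.9 and 26.0. The 2 WT Scl+ arrays thus did not group closely. Over the genes tested, WT Scl+ replicate 1 correlated at 0.9687 with WT Scl+ replicate 2. With the arrays of the other groups it correlated at 0.9738 to 0.9866. WT Scl- replicate 2 lay nearer to WT Scl+ in Tal1 than replicate 1 did. In bulk RNA, fewer cells expressing a gene and less RNA per cell cannot be told apart.

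In the mouse genome Notch1, Dll4 and Jag1 lie on chromosome 2, Notch2 and Hey1 on chromosome 3, Hey2 on chromosome 10, Jag2 on chromosome 12, Hes1 on chromosome 16, and Notch3 and Notch4 on chromosome 17. Promoter sequences were found for 8 of the 10 members in a RefSeq table (build GRCm38.p6), which held no entry for Hes1 or Hey1. The 250 bases before the start are shown for Hey2, Notch3 and Jag1, because these 3 genes, with Hey1, differed most between the groups. They lie at chr10:30842784-30843033, chr17:32166891-32167140 and chr2:137116521-137116770, all on the minus strand, and are written 5′ to 3′. Capitals mark TGGGAA (the core of the Rbpj site), CANNTG (the E-box, the kind of site that helix-loop-helix proteins bind) and GATA, each searched on both strands.
Hey2: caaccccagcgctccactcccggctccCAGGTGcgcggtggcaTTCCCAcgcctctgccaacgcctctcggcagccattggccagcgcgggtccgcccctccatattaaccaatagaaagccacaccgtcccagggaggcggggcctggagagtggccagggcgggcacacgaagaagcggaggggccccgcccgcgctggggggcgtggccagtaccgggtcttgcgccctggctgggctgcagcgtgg
Notch3: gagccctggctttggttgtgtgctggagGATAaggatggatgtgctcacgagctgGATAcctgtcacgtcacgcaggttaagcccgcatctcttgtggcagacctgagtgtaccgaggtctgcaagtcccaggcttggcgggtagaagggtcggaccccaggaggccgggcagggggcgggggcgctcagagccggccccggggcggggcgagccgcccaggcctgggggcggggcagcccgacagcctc
Jag1: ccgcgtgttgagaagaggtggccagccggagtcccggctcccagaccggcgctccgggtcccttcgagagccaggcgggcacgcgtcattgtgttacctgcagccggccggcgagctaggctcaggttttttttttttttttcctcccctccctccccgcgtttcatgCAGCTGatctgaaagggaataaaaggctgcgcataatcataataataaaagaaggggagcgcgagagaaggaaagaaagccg
Hey2 held 1 TGGGAA, read on the opposite strand as TTCCCA at 207 to 202 bases before the start, and 1 E-box, CAGGTG, at 223 to 218 bases. No other member of the 8 held TGGGAA in this window, and 21.6% of all 32851 promoter windows of this length did. Jag1 held 1 E-box, CAGCTG, at 82 to 77 bases before the start, and Notch4 held 1, CATTTG, while 66.2% of all windows held at least 1. Notch3 held 2 GATA matches, the letters read by GATA factors, against 53.6% of all windows with at least 1. The E-box CACGTG was in none of the 8 windows and in 6.0% of all. Such matches describe letters only.

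Among the receptors, Notch3 was the 1 that separated WT Scl+ from both other groups on each of its tested probe sets. Notch3 encodes a receptor known from mural cells of vessels. Its brighter probe set (1421965_s_at, whose suffix marks probes shared between transcripts) was at 8.52 and 8.07 in WT Scl+, 9.05 and 9.04 in WT Scl-, and 9.13 and 9.02 in SclKO. Both WT Scl+ arrays lay below all 4 others, and WT Scl- and SclKO overlapped. The second probe set (1421964_at) was at 7.52 and 7.37, then 8.23 and 8.13, then 8.38 and 8.27 in the same order. Here, too, both WT Scl+ arrays were the lowest of the 6, and the SclKO arrays lay just above those of WT Scl-.

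Notch3 was lower in WT Scl+ than in WT Scl- by 1.69-fold or 2.13-fold on the brighter probe set (-0.76 log units, SE 0.20, 95% interval -1.23 to -0.28, limma adjusted p = 0.439). The second probe set gave -0.74 log units (SE 0.16, limma adjusted p = 0.439). SclKO was above WT Scl+ by 0.78 (SE 0.20, limma adjusted p = 0.222) and 0.88 log units (SE 0.16, limma adjusted p = 0.148). SclKO and WT Scl- differed by 0.03 (95% interval -0.45 to 0.50) and 0.15 log units (-0.24 to 0.53).

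Notch1, the receptor needed for definitive blood formation, was at 8.12 and 7.88 in WT Scl+, 7.72 and 7.98 in WT Scl-, and 8.18 and 8.26 in SclKO on its brighter probe set (1418634_at). The SclKO arrays were the highest, above WT Scl- by 0.37 log units (95% interval -0.06 to 0.80, limma adjusted p = 0.907), while the WT groups overlapped. The other Notch1 probe set ran from 6.84 to 7.38 and overlapped in all 3 comparisons. Notch2 was at 10.65 and 10.50 in WT Scl+, 10.37 and 10.35 in WT Scl-, and 10.25 and 9.99 in SclKO on its brighter probe set (1455556_at). No groups overlapped, with WT Scl+ highest and SclKO lowest. The step from WT Scl+ to SclKO was -0.45 log units (SE 0.17, 95% interval -0.86 to -0.04, limma adjusted p = 0.349). That order was not seen on the second Notch2 probe set, where SclKO and WT Scl+ differed by -0.02 log units (95% interval -0.48 to 0.44).

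Notch4, a receptor found mainly in endothelium, lay near the limit for dim probe sets. Its brightest probe set (1449146_at) was at 4.69 and 5.26 in WT Scl+, 4.35 and 4.66 in WT Scl-, and 4.47 and 4.67 in SclKO. Both WT Scl+ arrays were the highest, though replicate 1 barely exceeded the SclKO arrays. The difference from WT Scl- was 0.47 log units (SE 0.24, 95% interval -0.12 to 1.06, limma adjusted p = 0.624). It was 0.19 without WT Scl+ replicate 2, 0.76 without replicate 1 of that group, and 0.31 without WT Scl- replicate 1. A second probe set gave 0.49 (SE 0.18, limma adjusted p = 0.509) with levels of 3.94 to 4.66, mostly under the limit, and the third stayed between 2.27 and 2.57.

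**Figure D1:**
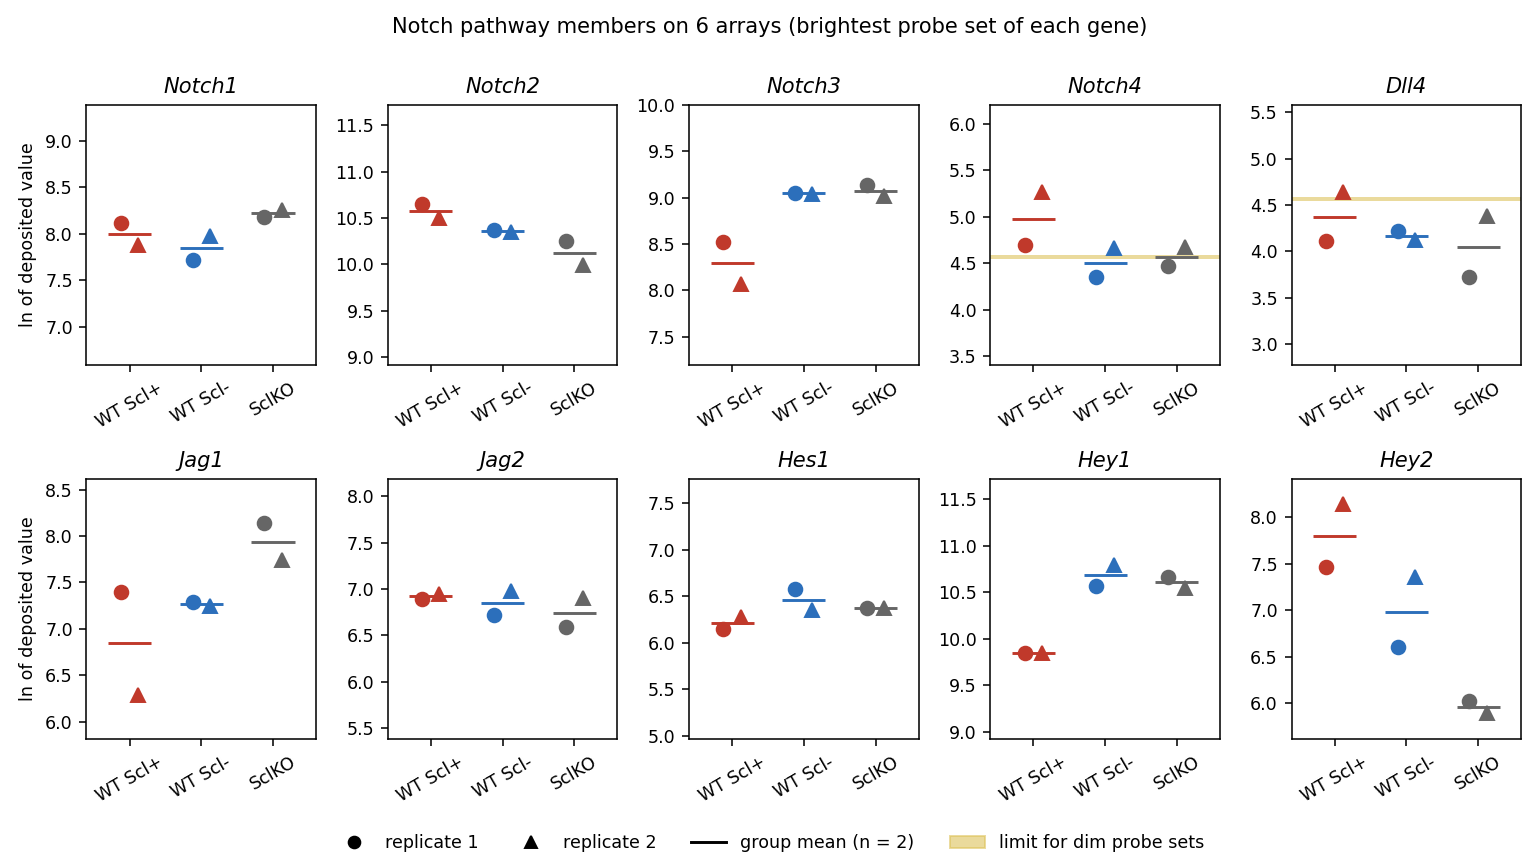
Natural log of the deposited value on each of the 6 arrays for the brightest probe set of each of the 10 genes (circles, replicate 1; triangles, replicate 2; bars, group means, n = 2); every panel spans the same height in log units, and the yellow band is the limit for dim probe sets. Hey2 steps down from WT Scl+ to WT Scl- to SclKO, Notch3 and Hey1 are lowest in WT Scl+, Jag1 is highest in SclKO, and Dll4 lies near or below the limit, with 1 of 6 arrays above it.

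Of the ligands, Jag1 was highest in SclKO. Jag1 is a membrane ligand of Notch receptors found in many mesodermal tissues. On its brightest probe set (1434070_at) it was at 7.40 and 6.29 in WT Scl+, 7.29 and 7.25 in WT Scl-, and 8.14 and 7.74 in SclKO. Both SclKO arrays lay above the other 4, and the WT groups overlapped because the WT Scl+ arrays lay far apart. The second probe set (1421106_at) was at 6.10 and 5.41, then 6.61 and 5.99, then 7.17 and 6.82, with SclKO again above the rest. The third (1421105_at) was at 5.47 and 5.51, then 6.03 and 5.70, then 5.92 and 5.93, so that SclKO and WT Scl- overlapped there and WT Scl+ was lowest. Jag1 in WT Scl+ differed from WT Scl- by -0.42 (SE 0.37), -0.54 (SE 0.32) and -0.37 log units (SE 0.17), and all 3 rest on single arrays. Without WT Scl+ replicate 2 the first turned to 0.13 and the second was -0.20, and without replicate 1 of that group they were -0.98 and -0.89. Without WT Scl- replicate 1 the second was -0.23 and the third -0.21, and without replicate 2 of WT Scl- the second was -0.85.

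SclKO exceeded WT Scl+ in Jag1 by 2.13-fold or 2.98-fold on the brightest probe set (1.09 log units, SE 0.37, 95% interval 0.20 to 1.99, limma adjusted p = 0.318), and by 1.24 (SE 0.32, limma adjusted p = 0.228) and 0.44 log units (SE 0.17, limma adjusted p = 0.370) on the others. The first of these values rests on WT Scl+ replicate 2: it was 0.54 log units without that array and 1.65 without replicate 1. Against WT Scl- the SclKO difference was 0.67 (SE 0.37), 0.70 (SE 0.32) and 0.06 log units (SE 0.17), with limma adjusted p from 0.898 to 0.995. Without WT Scl- replicate 2 the second was 0.39 and the third turned to -0.10, while without WT Scl- replicate 1 the third was 0.22. The sizes thus depend on which Jag1 probe set is read.

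Jag2, a ligand related to Jag1, was at 6.89 and 6.95 in WT Scl+, 6.72 and 6.98 in WT Scl-, and 6.59 and 6.90 in SclKO on its brighter probe set (1426430_at). All 3 groups overlapped. For WT Scl+ minus WT Scl- the interval ran from -0.38 to 0.52 log units, and for SclKO minus WT Scl+ from -0.62 to 0.28. Dll4, the ligand of arterial and tip endothelial cells, could not be tested. Its brighter probe set (1421827_at) was at 4.11 and 4.64 in WT Scl+, 4.22 and 4.12 in WT Scl-, and 3.72 and 4.38 in SclKO, and the other (1421826_at) was at 3.54 and 4.27, then 3.13 and 3.55, then 3.32 and 3.50. WT Scl+ replicate 2 was the highest array on both, and on the brighter one it was the only array above the limit. No size is given for such dim values.

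Among the target genes Hey1 and Hey2 went opposite ways. Hey2 (1418106_at) was at 7.47 and 8.14 in WT Scl+, 6.61 and 7.36 in WT Scl-, and 6.02 and 5.89 in SclKO. The 3 groups did not overlap and stepped down in that order, although WT Scl- replicate 2 came close to WT Scl+ replicate 1. Hey1 (1415999_at) was at 9.85 on both WT Scl+ arrays, at 10.57 and 10.79 in WT Scl-, and at 10.66 and 10.55 in SclKO. Both WT Scl+ arrays lay below all 4 others, among which the groups overlapped.

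SclKO was lower than WT Scl+ in Hey2 by 3.59-fold or 6.33-fold (-1.85 log units, SE 0.32, 95% interval -2.63 to -1.06, limma adjusted p = 0.148). WT Scl+ exceeded WT Scl- in Hey2 by 0.82 log units (1.76-fold or 2.26-fold, SE 0.32, limma adjusted p = 0.523). That value was 0.44 without WT Scl- replicate 1 and 0.48 without WT Scl+ replicate 2. Hey2 was also lower in SclKO than in WT Scl- (-1.03 log units, SE 0.32, 95% interval -1.82 to -0.24, limma adjusted p = 0.886), and this value was -0.66 without WT Scl- replicate 2.

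Hey1 in WT Scl+ differed from WT Scl- by -0.83 log units (1.78-fold or 2.30-fold, SE 0.16, 95% interval -1.22 to -0.44, limma adjusted p = 0.439). It stayed between -0.94 and -0.72 when any single array was left out. SclKO was above WT Scl+ by 0.75 log units (SE 0.16, limma adjusted p = 0.184), and SclKO and WT Scl- differed by -0.08 log units (95% interval -0.47 to 0.32). Hes1, a target gene that other signals also control, was at 6.15 and 6.28 in WT Scl+, 6.58 and 6.35 in WT Scl-, and 6.38 on both SclKO arrays. WT Scl+ lay lowest without overlap, but its difference from WT Scl- was only -0.25 log units (SE 0.16, 95% interval -0.65 to 0.15, limma adjusted p = 0.691).

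**Figure D2:**
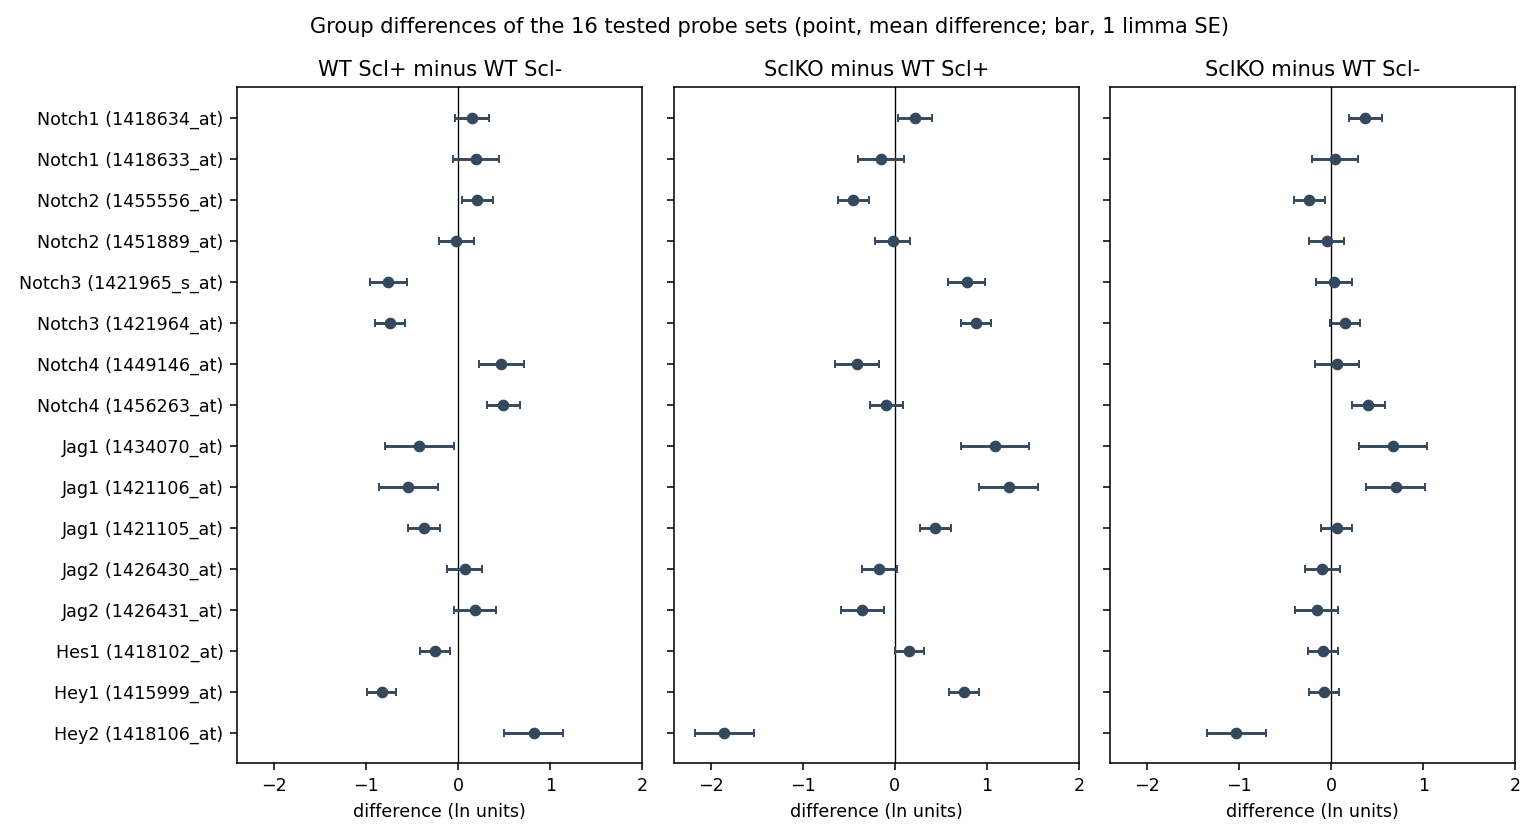
Mean difference in log units (points) with 1 limma standard error (bars) for the 16 tested probe sets in the 3 comparisons, each named by gene and probe set. Hey2 reaches -1.85 in SclKO minus WT Scl+, where both Notch3 probe sets, all 3 Jag1 probe sets and Hey1 lie above 0. No probe set shown passed at an adjusted p under 0.05.

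Counted over probe sets, which share a target where they read 1 gene, none of the 16 was called at an adjusted p under 0.05 in any comparison. The background of calls was 0% of 28363 probe sets tested for WT Scl+ minus WT Scl-, in either direction, and 0.00353% higher and 0.00705% lower for SclKO minus WT Scl+ and likewise for SclKO minus WT Scl-. The lowest adjusted p of a member was 0.439, 0.148 and 0.886 in these 3 comparisons. In the first, an unadjusted p under 0.05 was met by 2 of 16 as higher and by 3 as lower in WT Scl+, against 4.44% and 4.94% of all probe sets. The higher ones read Hey2 and Notch4, the latter only on its second probe set (1456263_at), which lay mostly under the limit. The brightest Notch4 probe set did not meet it. The lower ones read Notch3, with both probe sets, and Hey1. Groups did not overlap for 4 of 16 as higher and 5 as lower, against 16.6% and 21.2% of all. The median difference was 0.02 log units over the 16 and -0.045 over all probe sets.

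For SclKO minus WT Scl+, 6 of 16 were higher at an unadjusted p under 0.05, against 7.35% of all, and these 6 came from only 3 genes, Notch3, Jag1 and Hey1. The 2 lower ones, read against 5.68% of all, were Hey2 and the brighter Notch2 probe set. Groups did not overlap for 8 as higher and 3 as lower, against 24.4% and 18.2% of all. For SclKO minus WT Scl-, 0 were higher and only Hey2 was lower, against 2.7% and 2.77% of all. There the groups did not overlap for 5 as higher and 2 as lower, against 21.7% and 19.5%. The 3 comparisons share arrays, so their counts are not independent of each other.

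WT Scl+ replicate 1 decided whether any member was called. Without it, which leaves only the array that stood apart in that group, Hey2 (-2.18 log units, limma adjusted p = 0.0429), Jag1 (1.65, adjusted p = 0.0381) and Notch3 (1.01, adjusted p = 0.0452) passed in SclKO minus WT Scl+. With 1 array left in that group, the spread comes only from the other groups, and the lone array is assumed to vary like theirs. In the same fit 871 probe sets were called higher and 301 lower among all tested. Without WT Scl+ replicate 2 none passed, and the counts at an unadjusted p under 0.05 were 4 higher and 2 lower of the 16 in that comparison, against 5% and 5.67% of all probe sets. In WT Scl+ minus WT Scl- they were 0 higher and 3 lower, against 3.79% and 3.7%.

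The rest of the pathway was read from a list of 56 genes, of which 51 had a probe set and 44 were tested, each on its brightest probe set. At an unadjusted p under 0.05, 4 were higher and 2 lower in WT Scl+ than in WT Scl-, 4 were higher and 1 lower in SclKO than in WT Scl+, and 2 were higher and 1 lower in SclKO than in WT Scl-. Over all 12922 genes tested, each on its brightest probe set, the same counts were 671 and 444, 854 and 806, and 356 and 268. None of the 44 was called over all probe sets. The median differences were 0.00, 0.02 and 0.06 log units, beside -0.02, 0.04 and 0.02 over all genes tested.

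The other Delta ligands lay on the side of Notch3 and Hey1. Dll3, a ligand-like protein of paraxial mesoderm, was at 6.17 and 6.02 in WT Scl+, 6.88 and 6.84 in WT Scl-, and 7.29 and 7.43 in SclKO, so that the groups stepped up without overlap. Its difference was -0.76 log units for WT Scl+ minus WT Scl- (SE 0.16, limma adjusted p = 0.439), and 1.26 for SclKO minus WT Scl+ (SE 0.16, limma adjusted p = 0.135). Dll1, the main Delta ligand of early mesoderm, was at 6.08 and 5.78 in WT Scl+, 7.16 and 6.35 in WT Scl-, and 6.86 and 6.66 in SclKO. WT Scl+ was the lowest group, by 0.82 log units below WT Scl- and 0.83 below SclKO (SE 0.29 each). Dner, a Notch-binding protein, was picked out after its values were seen: its brighter probe set was at 2.94 on WT Scl+ replicate 2 and between 5.93 and 6.40 on the other 5 arrays.

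Of the enzymes that process receptors, Furin, which cuts the receptor in the Golgi, was at 8.70 and 8.90 in WT Scl+ and 8.27 and 8.21 in WT Scl-. That is 0.56 log units (SE 0.16, limma adjusted p = 0.448). Adam10, which makes the first cut after ligand binding, differed by 0.47 log units in the same direction (SE 0.19). Kat2b, a histone acetyltransferase that works with the Notch complex, also differed in that direction, by 0.44 log units (SE 0.18). Aph1a, a subunit of gamma-secretase, was higher in SclKO by 0.41 log units against either WT group (SE 0.15), and Psen2, a catalytic subunit, was lower in SclKO than in WT Scl- by 0.55 (SE 0.21).

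Among the fringe enzymes, which add sugars to Notch and tune its choice of ligand, Mfng and Lfng had opposite signs. Mfng was at 4.91 and 5.65 in WT Scl+ and 4.18 and 4.73 in WT Scl-, a difference of 0.83 log units (SE 0.30). Lfng was at 4.74 and 4.61 in WT Scl+, 5.96 and 4.75 in WT Scl-, and 5.80 and 5.20 in SclKO. WT Scl+ was lowest in Lfng, by 0.68 log units below WT Scl- (SE 0.42), but WT Scl- replicate 2 nearly reached it. Neurl1b, a ubiquitin ligase acting on ligands, was lower in SclKO than in WT Scl+ by 0.91 log units (SE 0.31). Its levels were 5.63 and 4.79 in WT Scl+, and 4.52 and 4.08 in SclKO, where both arrays lay under the limit for dim probe sets. The co-repressor gene Tle3 was higher in SclKO than in WT Scl+ by 0.53 log units (SE 0.19). Rbpj, the DNA-binding partner of all Notch receptors, ran from 7.53 to 8.07 on its brightest probe set with all groups overlapping. There WT Scl+ differed from WT Scl- by -0.22 log units (SE 0.20). On its other probe sets WT Scl+ lay below WT Scl- without overlap, by -0.32 (SE 0.18) and -0.47 log units (SE 0.25), while SclKO and WT Scl+ overlapped. Of the other Hes and Hey genes, Hes7, an oscillating gene of the presomitic mesoderm, ran from 4.01 to 5.20 with the groups overlapping, and Heyl stayed under the limit on all arrays.

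**Figure D3:**
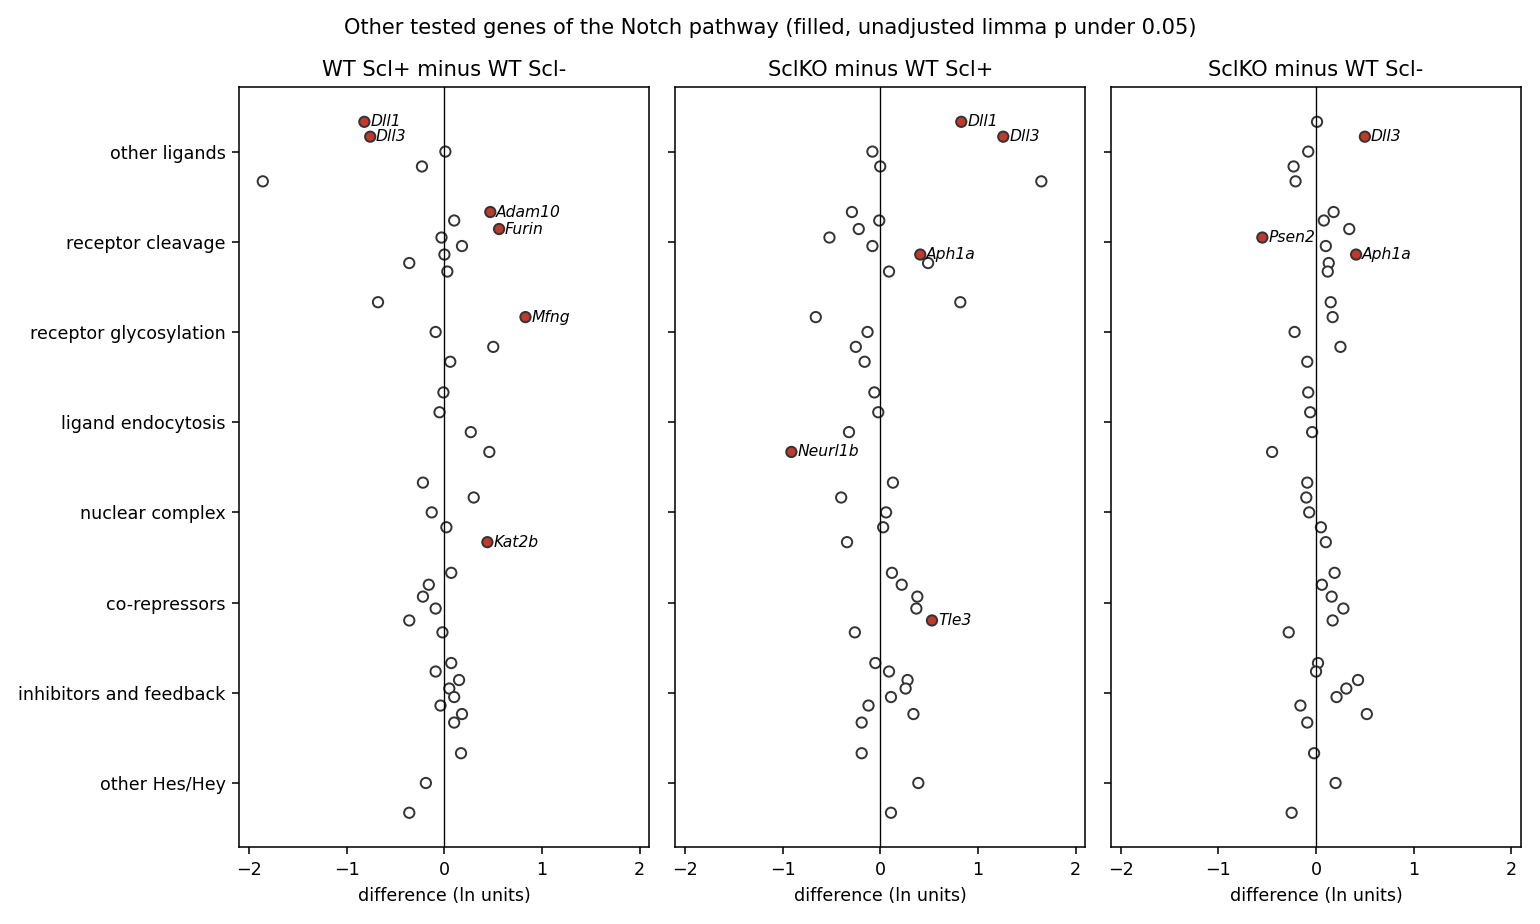
Difference in log units for each of the 44 other tested pathway genes on its brightest probe set, by role, in the 3 comparisons (circles, filled where the unadjusted limma p is under 0.05). Dll1 and Dll3 lie at -0.82 and -0.76 in WT Scl+ minus WT Scl- and at 0.83 and 1.26 in SclKO minus WT Scl+, while most other genes lie near 0; the open circle at -1.86 among the ligands is Dner.

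Markers of other cell types differed between the groups alongside these members. The 10 endothelial markers (8 tested, Emcn and Robo4 under the limit on all arrays) had a summed level of 65.0 and 69.9 in WT Scl+, 47.5 and 60.2 in WT Scl-, and 50.2 and 57.4 in SclKO. Like Hey2, the list was higher on replicate 2 than on replicate 1 of WT Scl-, but SclKO replicate 2 lay well above WT Scl- replicate 1 in the list and below it in Hey2. All 8 tested endothelial markers had a positive difference between WT Scl+ and WT Scl-, with a median of 1.44 log units. Blood markers (9 genes, Ptprc under the limit on all arrays) summed to 66.2 and 64.7, then 46.8 and 55.7, then 44.3 and 46.2, in the order of groups in which Hey2 stepped down. The 9 arterial markers, with Gja5 and Bmx under the limit throughout, summed to 62.2 and 62.7, then 59.7 and 62.2, then 61.2 and 60.3. Of the 7 tested, 4 were higher and 3 lower in WT Scl+ than in WT Scl-. In SclKO minus WT Scl+, 3 were higher and 4 lower, with a median of -0.90 log units. Efnb2 stepped down without overlap in the group order of Hey2, while Unc5b stepped up without overlap. Both were picked out after their values were seen.

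Primitive streak markers were lowest in WT Scl+, like Notch3, Hey1, Dll1 and Dll3. The 6 genes summed to 47.7 and 43.1 in WT Scl+, 55.0 and 53.1 in WT Scl-, and 55.6 and 55.1 in SclKO, and all 6 had a negative difference between WT Scl+ and WT Scl-, with a median of -1.43 log units. The 7 paraxial mesoderm markers summed to 34.4 and 32.2, then 36.9 and 35.3, then 36.0 and 35.4, with Meox1, Pax3 and Uncx under the limit on all arrays. The 8 cardiac markers, listed because Hey2 marks heart cells too, summed to 50.7 and 47.3, then 56.5 and 52.6, then 56.1 and 51.9, so that WT Scl+ was lowest there while it was highest in Hey2. Smooth muscle markers, a cell type of Notch3, summed to 32.3 and 29.2, then 31.5 and 31.4, then 32.0 and 30.9, with the groups overlapping. Of the 5 genes, 3 had a negative and 2 a positive difference between WT Scl+ and WT Scl-. Pdgfrb, picked out after its values were seen, was lowest in WT Scl+ without overlap on each of its probe sets, like Notch3. Its brightest probe set gave -0.49 log units for WT Scl+ minus WT Scl- and 0.71 for SclKO minus WT Scl+ (SE 0.24 each). Acta2 and Tagln went the other way, at 0.39 and 0.37 log units in WT Scl+ minus WT Scl-. Some markers of ES cells and of endoderm were highest in SclKO, like Jag1. The 6 ES cell markers summed to 44.6 and 38.2, then 43.0 and 40.4, then 43.9 and 43.6, with SclKO and WT Scl+ overlapping, and the median difference of the 5 tested was 0.57 log units in SclKO minus WT Scl+ and 0.80 in SclKO minus WT Scl-. Pou5f1, a pluripotency factor, was at 10.01 and 10.09 in SclKO and between 7.79 and 9.26 on the 4 WT arrays. Dppa5a was likewise highest in SclKO without overlap, while Klf4 was lowest there and Nanog overlapped. Zfp42 overlapped between SclKO and WT Scl+. Esrrb, which was not tested, was lowest in SclKO without overlap on its brightest probe set. The 7 endoderm markers summed to 42.4 and 41.0, then 39.9 and 39.5, then 42.6 and 41.6. Foxa2, Cer1 and Gata6 were highest in SclKO without overlap, though another Gata6 probe set overlapped between SclKO and WT Scl+. Sox17 was instead highest in WT Scl+ without overlap, at 6.80 and 7.26 against 6.10 and 5.63 in SclKO. Ttr and Hnf4a overlapped between SclKO and both WT groups, and Afp, which was not tested, had its lowest mean in SclKO. In both lists the genes highest in SclKO were picked out after their values were seen. The part of these cell types in the values of the Notch genes was not tested.

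**Figure D4:**
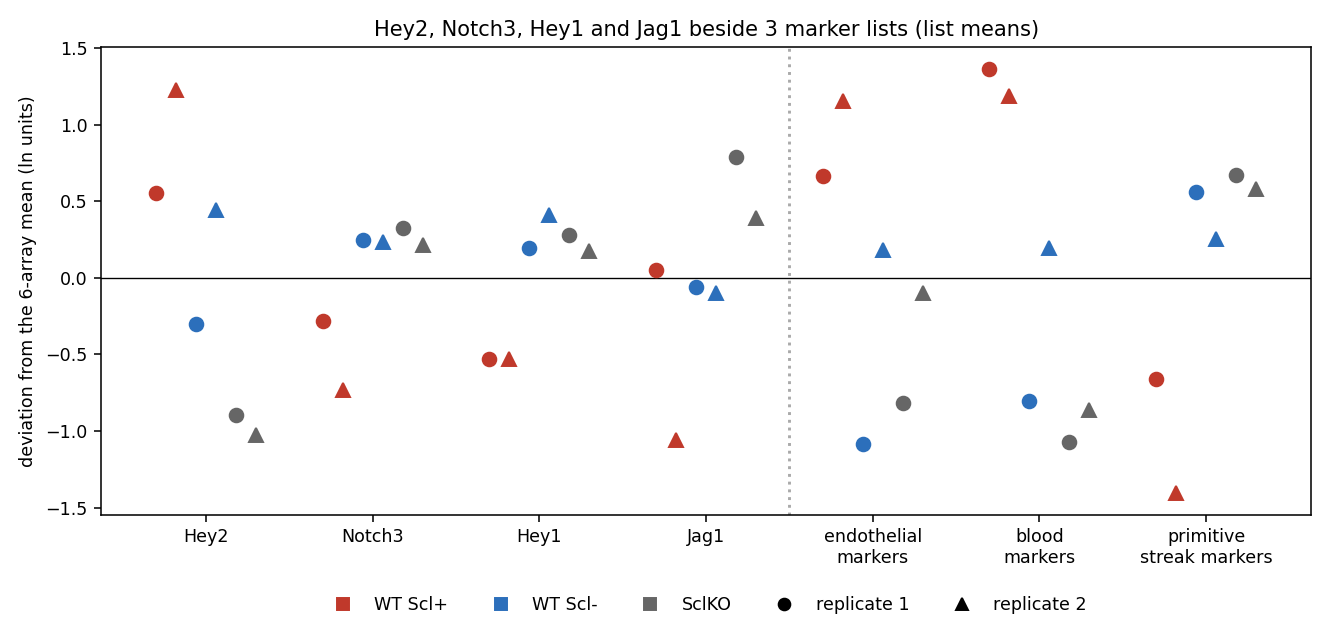
Deviation of each array from the 6-array mean, in log units, for Hey2, Notch3, Hey1 and Jag1 (left) and for the mean of the endothelial, blood and primitive streak markers (right); colours are groups, circles replicate 1 and triangles replicate 2. Hey2 and the blood markers have WT Scl+ above SclKO (0.56 and 1.23 against -0.89 and -1.02 for Hey2), while Notch3, Hey1 and the streak markers have both WT Scl+ arrays lowest.

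The genes whose pattern over the 6 arrays was most like that of a member were listed as a description, among genes that varied at least as much. For Hey2 these were Itm2a, Tmem38b and Nrip3 (Pearson r = 0.983, 0.982 and 0.978, among 250 genes). For Notch3 they were Pard6g, Wnt5a, a secreted signal, and Fzd7, a receptor of Wnt signals (r = 0.994, 0.994 and 0.990, among 1721 genes). Hey1 was followed by Cdk14, Ptpn13 and 2310030G06Rik (r = 0.955, 0.951 and 0.949, among 1767 genes), and Jag1 by St3gal3, Fancf and Fst, the gene of the activin antagonist follistatin (r = 0.992, 0.985 and 0.977, among 673 genes). Notch4, near the limit, was followed by Crispld2, Sipa1 and Vwf, an endothelial product (r = 0.991 each). Notch1 was followed by Lmo4, Tph1 and Hsd17b11 (r = 0.983, 0.978 and 0.978), and Notch2 by Bard1, Fam72a and Rtkn2 (r = 0.997, 0.993 and 0.986). All these values share the same 6 arrays, and with so few arrays high values arise readily among many genes.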

How the data were processed

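Total RNA of Flk1+ cells was hybridised to 6 Affymetrix arrays, grouped by sample title. The submitters' processing notes list limma, affy and RMA with no version or order. RMA removes background, sets the arrays to 1 distribution by quantiles and summarises each set of probes. Every array has deposited signal values above 65535, more than a 16-bit scanner gives, and no scale is stated, so natural logs were taken. Each of 28363 non-control probe sets above the 40th percentile of its array on at least 2 arrays was fitted in limma 3.58.1 (R 4.3.3) on all 6 arrays (1 mean per group, eBayes, two-sided, Benjamini-Hochberg over all probe sets tested). Intervals are 95% from the moderated fit. The number of arrays limits the precision.

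The fit was tested on simulated data with normal spread, independent between arrays, and differences added to WT Scl+. Of differences of 1 log unit, 16.9% were called in SclKO minus WT Scl+ and 21.9% in WT Scl+ minus WT Scl-. Of those of 2 log units, 93.5% and 95.0% were called. The absence of a call therefore says little about differences of 1 log unit or less. The members and lists were chosen with earlier results of these data known. Named were all 10 members, 6 other pathway genes whatever their values, and at most 5 further ones per comparison without overlap at an unadjusted p under 0.05. Dner and Dlk1 were added after their values were seen. Symbols were updated through Entrez identifiers, and a gene's brightest probe set stands for it. Alternatives were other filters, normalizations and variance models, 1 probe set per gene, the replicate number as a block, and leaving out each array.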

Additional observations from a re-analysis of the deposited data

How the results depend on the processing

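Under the 10 settings other than leaving out an array, 448 of 450 member differences kept their sign. The exceptions were the second Notch2 probe set in WT Scl+ minus WT Scl- (0.017 with arrays centred on the median) and the brightest Notch4 probe set in SclKO minus WT Scl- (-0.016 with dim values at the limit). Leaving out each array kept the sign in 269 of 288 values. The ranges that crossed 0 in WT Scl+ minus WT Scl- were those of Jag1 1434070_at (-0.98 to 0.13), Jag2 1426430_at (-0.058 to 0.20), Jag2 1426431_at (-0.049 to 0.41) and Notch1 1418633_at (-0.080 to 0.46). In SclKO minus WT Scl+ they were those of Notch1 1418633_at (-0.37 to 0.071), Notch2 1451889_at (-0.23 to 0.19) and Notch4 1456263_at (-0.19 to 0.005). In SclKO minus WT Scl- they were those of Hes1 1418102_at (-0.20 to 0.027), Hey1 1415999_at (-0.19 to 0.035), Jag1 1421105_at (-0.10 to 0.22), Jag2 1426430_at (-0.26 to 0.050), Jag2 1426431_at (-0.38 to 0.046), Notch1 1418633_at (-0.23 to 0.31), Notch2 1451889_at (-0.26 to 0.17), Notch3 1421965_s_at (-0.025 to 0.078) and Notch4 1449146_at (-0.095 to 0.22). Under any setting 3 member values were called, all without WT Scl+ replicate 1. In each case the cause was not tested.

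Over all probe sets, SclKO minus WT Scl- gave 1 call higher and 2 lower. These became 2 and 4 with a stricter filter, 3 and 8 with a mean-variance trend, 3 and 4 with array weights, 2 and 4 with dim values at the limit, and 0 lower with 1 probe set per gene. SclKO minus WT Scl+ gave 1 higher and 2 lower. These became 2 higher with the stricter filter, 14 and 23 with the trend, 26 lower with only the 2 groups compared, and 0 lower with 1 probe set per gene. Leaving out each array gave 0 to 1 higher and 0 to 2 lower in SclKO minus WT Scl-, 0 to 871 and 0 to 301 in SclKO minus WT Scl+, and 0 to 9 and 0 to 37 in WT Scl+ minus WT Scl-, where no call was made with all arrays. The highest counts in the last 2 comparisons came without WT Scl+ replicate 1.

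The replicate numbers are shared between groups, but nothing in the labels says that they pair samples; deviations from the group means correlated at 0.25 in each pair of groups. With the replicate block, 2 probe sets were called higher and 4 lower in SclKO minus WT Scl+, and the other counts and the absence of called members did not change. Signal near the limit for dim probe sets keeps Dll4 untested and leaves Notch4 uncertain.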
